A study of Mus musculus with 24 samples.

Results

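A set of 6 genes of the muscle calcium pump was followed in differentiated muscle that had been exercised with light. The genes were the 3 SERCA pump genes Atp2a1, Atp2a2, and Atp2a3, and the 3 genes of small membrane peptides that bind these pumps, Sln (sarcolipin), Pln (phospholamban), and Mrln (myoregulin). They were chosen by gene name, and all 6 were found once each among the 56941 genes of the count and TPM tables, TPM being transcript abundance scaled to transcript length and library size. The tissues were 2D sheets grown on fibrin from C2C12, an established line of mouse myoblasts whose cells fuse to form fibers, and all 24 of them, controls included, carried the ChR2::tdTomato transgene, which encodes a blue light-gated ion channel. All were differentiated in medium with horse serum and IGF-1. Each of the 4 conditions comprised 6 biological replicates. Control tissues received no light, and the other tissues received light for 30 min per day at 1, 4, or 10 Hz. A cultured sheet of 1 cell line has no nerve and none of the other cell types of a muscle.

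SERCA pumps sit in the membrane of the sarcoplasmic reticulum, the calcium store of the muscle fiber, and pump calcium back from the cytosol after each contraction so that the fiber relaxes. Atp2a1 encodes the pump of fast fibers, Atp2a2 has among its products the pump of slow fibers and heart, and Atp2a3 encodes a form found mainly outside striated muscle. Sarcolipin, phospholamban, and myoregulin each span the membrane once and lower the activity of the pump. Myoregulin is the regulator typical of skeletal muscle, phospholamban is best known from heart and slow fibers, and sarcolipin from atrium and, in mouse, from slow and immature fibers.

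The reading frames of the 3 regulators are shown because they set these genes apart from the pumps, being far shorter and each within a single exon. They were read from GRCm39 with the canonical transcripts of GENCODE M39, on the plus strand, with the start codon and the stop codon in capitals. The Sln frame, at chr9:53760757-53760852, holds 31 codons before the stop. The Pln frame, at chr10:53219960-53220118, holds 52, and the Mrln frame, at chr10:70055326-70055466, holds 46. The frames of the pumps hold 994 codons (Atp2a1), 998 codons (Atp2a2), and 999 codons (Atp2a3).
Sln: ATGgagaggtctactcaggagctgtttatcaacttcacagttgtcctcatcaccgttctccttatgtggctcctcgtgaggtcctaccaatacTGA
Pln: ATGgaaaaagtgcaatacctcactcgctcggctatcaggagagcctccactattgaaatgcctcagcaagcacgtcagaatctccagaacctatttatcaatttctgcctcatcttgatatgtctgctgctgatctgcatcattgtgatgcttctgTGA
Mrln: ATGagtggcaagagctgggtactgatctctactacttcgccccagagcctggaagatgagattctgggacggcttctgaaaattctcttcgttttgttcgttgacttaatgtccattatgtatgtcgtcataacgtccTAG

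The genes themselves lie at chr7:126045013-126063423 (Atp2a1, ENSMUSG00000030730, minus strand, 23 exons in the canonical transcript), chr5:122591575-122640903 (Atp2a2, ENSMUSG00000029467, minus strand, 21 exons), chr11:72851990-72883870 (Atp2a3, ENSMUSG00000020788, plus strand, 21 exons), chr9:53742537-53761846 (Sln, ENSMUSG00000042045, plus strand, 2 exons), chr10:53199622-53223512 (Pln, ENSMUSG00000038583, plus strand, 2 exons), and chr10:70040463-70055541 (Mrln, ENSMUSG00000019933, plus strand, 3 exons). Pln lies inside Cep85l, which is on the opposite strand and shares 141 of the 6163 exonic bases of Pln. Cep85l had a log2 fold change of 0.06 ± 0.15 SE at 1 Hz (edgeR adjusted p = 0.78) and of -0.16 ± 0.15 at 4 Hz (edgeR adjusted p = 0.428). The noncoding Gm47644, also opposite, shares 2688 bases with Pln and reached at most 0.393 CPM (counts scaled to library size). Rabep2 shares 1188 of the 6751 exonic bases of Atp2a1 from the opposite strand, with a mean of 20.7 CPM. Whether counting used strand is not given in the sources used here, so reads in these shared bases are uncertain. The 250 bases before the canonical start site of Mrln, at chr10:70040213-70040462 in GRCm39 on the plus strand, are shown because Mrln had the highest TPM of the 3 regulators, and the match to the E-box CACCTG, searched on both strands, is in capitals.
Mrln: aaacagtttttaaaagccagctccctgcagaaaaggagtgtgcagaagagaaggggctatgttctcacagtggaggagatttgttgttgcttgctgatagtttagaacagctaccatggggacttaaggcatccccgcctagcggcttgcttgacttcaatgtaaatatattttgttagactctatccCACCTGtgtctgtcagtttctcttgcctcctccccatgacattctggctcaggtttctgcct
CACCTG occurred once in this window, 62 to 57 bases before the start, and in none of the windows of Atp2a1, Atp2a2, Atp2a3, and Sln, against 17.7% of the 21757 windows of protein-coding genes. TATAAA occurred among these 5 windows in that of Sln alone, as an overlapping pair with a match on each strand, against 11.9% of all windows. Neither CAGCTG (11.9% of all windows) nor the MEF2 motif (2.79%) occurred in any of the 5 windows. All 250 bases of the Atp2a2 window and 31 of the Atp2a1 window lie in annotated exons of the same gene, so these windows are not wholly upstream of it.

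Total counts per library ranged from 4.09 to 15.2 M reads, with a median of 7.48 M. No library was a copy of another. The tissues matched their label as differentiated muscle. The 10 muscle fiber markers summed to 11300 TPM or more in every control library and to 10900 TPM or more in every stimulated library, whereas 8 myoblast markers summed to between 35.6 and 76.0 TPM. Of 6 heart muscle markers, Nppa and Myl7 were at 0 in all libraries, while Myh6 had a mean of 32.4 TPM in control, 55.8 TPM at 1 Hz, 49.6 TPM at 4 Hz, and 33.2 TPM at 10 Hz, and was called higher at 1 and 4 Hz (log2 fold change 1.00 ± 0.20 SE and 0.85 ± 0.20, edgeR adjusted p = 0.000447 and 0.00149). Nppb went the other way, with a mean of 5.99 TPM in control, 2.39 at 1 Hz, 2.99 at 4 Hz, and 5.52 at 10 Hz. Tnni3 was also lower, at 2.67, 1.81, 2.21, and 2.01 TPM, and Ryr2 had a mean of at most 0.0255 TPM. Of the 2 heart muscle markers tested, 1 was called higher and 1 lower at 1 Hz. The summed level of the 6 ranged from 29.2 to 50.7 TPM in control, 43.5 to 90.8 TPM at 1 Hz, 41.1 to 81.3 TPM at 4 Hz, and 36.6 to 46.8 TPM at 10 Hz. The 5 fat cell markers summed to at most 1.66 TPM. Smooth muscle markers summed to 296 ± 64.6 TPM in control (SD, n = 6), 518 ± 83.2 TPM at 1 Hz, 508 ± 73.1 TPM at 4 Hz, and 335 ± 84.1 TPM at 10 Hz, most of it Acta2, while their defining myosin Myh11 had a mean of at most 0.115 TPM in any condition. Acta2 and Tagln were called higher at 1 and 4 Hz. Smtn was called lower at 4 Hz (log2 fold change -0.53 ± 0.12 SE, edgeR adjusted p = 0.00129) and at 10 Hz (-0.60 ± 0.12, edgeR adjusted p = 0.00483). Cnn1 had a mean of 1.53 TPM in control, 0.94 at 1 Hz, 0.767 at 4 Hz, and 0.552 at 10 Hz. Small RNAs without a poly(A) tail (19 listed genes) accounted for 129 ± 23.7 CPM of the library total in control (SD, n = 6), 29.1 ± 20.9 at 1 Hz, 26.2 ± 12.3 at 4 Hz, and 123 ± 87.0 at 10 Hz. These values split the libraries much as the 6 genes did, and the control libraries (96.5 to 168) did not overlap with those at 1 Hz (14.5 to 69.2) or 4 Hz (17.1 to 49.7).

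Per transcript length, Atp2a1 and Atp2a2 were present at about the same level, and the regulators were far scarcer. Values are per gene, so the 22 coding transcripts annotated for Atp2a2 were not told apart. In control, the mean level was 289 ± 27.5 TPM for Atp2a1 (SD, n = 6) and 279 ± 33.4 TPM for Atp2a2, which overlapped. Mrln followed at 7.10 ± 2.97 TPM, Pln at 1.31 ± 0.746 TPM, Sln at 1.12 ± 0.626 TPM, and Atp2a3 at 0.421 ± 0.145 TPM. The levels of Pln, Sln, and Atp2a3 overlapped in control. At 4 Hz the order was the same, at 407 ± 69.5 TPM for Atp2a1, 337 ± 23.2 TPM for Atp2a2, 26.0 ± 4.23 TPM for Mrln, 5.78 ± 2.13 TPM for Pln, 2.53 ± 0.300 TPM for Sln, and 1.26 ± 0.652 TPM for Atp2a3. By mean TPM over all libraries, Atp2a1 ranked 410th and Atp2a2 451st of all genes, Mrln 6177th, Pln 10880th, Sln 12383rd, and Atp2a3 14122nd. The scarcer genes rested on few reads. Each library held 2050 to 13400 counts of Atp2a1 but only 1 to 25 of Sln, 4 to 59 of Pln, 4 to 77 of Mrln, and 3 to 81 of Atp2a3.

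At 1 and 4 Hz most of the calcium pumps and their regulators were higher than in control, and at 10 Hz none of them was called. Levels between libraries are given in CPM with TMM scaling. Genes are said to be called where the edgeR quasi-likelihood test, run on 13318 genes, gave an adjusted p below 0.05 and the log2 fold change exceeded 0.5 in size. Of the 6 genes, 5 were called higher at 1 Hz, against 9.34% of all genes tested, and 5 were called higher at 4 Hz, against 10.5%. In CPM, every stimulated library lay above every control library for 4 of the 6 genes at 1 Hz, against 7.22% of all genes tested, and for 5 of 6 at 4 Hz, against 8.68%. In TPM this held for 2 genes at 1 Hz and for 4 at 4 Hz, but the share of all genes was not computed in TPM. The median log2 fold change of the 6 genes was 1.20 at 1 Hz and 1.41 at 4 Hz, beside -0.01 over all genes at both frequencies. All 6 genes passed the filter on low counts, but its cutoff of 1.34 CPM was met by only 1 of 6 control libraries for Sln and for Pln, by 3 for Mrln, and by 4 for Atp2a3. The 3 regulators were thus tested because of their levels in stimulated tissue, and the counts are a description. The tissues were measured in bulk, so more fiber RNA in a library and more of a transcript per fiber cannot be told apart.

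With the log2 share of small RNAs added to the fit as a covariate, edgeR called 0 of the 6 genes in any comparison. At an unadjusted p under 0.05 it left 3 genes at 1 Hz (Atp2a1, Atp2a2, and Mrln), 3 at 4 Hz (Atp2a1, Sln, and Mrln), and 1 at 10 Hz (Mrln) against control. Between frequencies it left 2 for 10 against 1 Hz (Atp2a1 and Atp2a2), 3 for 10 against 4 Hz (Atp2a1, Atp2a2, and Sln), and 0 for 4 against 1 Hz. The share of all genes under this unadjusted cutoff was not computed, so these counts have nothing to be judged against. Of all genes, this fit called 1 at 1 Hz, 248 at 4 Hz, and 205 at 10 Hz against control, 416 for 4 against 1 Hz, 256 for 10 against 1 Hz, and 0 for 10 against 4 Hz. Mrln at 4 Hz then had a log2 fold change of 1.55 (edgeR adjusted p = 0.0658). Since control and the 1 and 4 Hz libraries were fully apart in this share, it and stimulation cannot be told apart.

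Both major pump genes were called higher at 1 Hz. At 4 Hz Atp2a1 was called, and Atp2a2 was higher but below the minimum fold. For Atp2a1, the fast pump, the 6 control libraries ranged from 398 to 519 CPM with a median of 480. The range was 649 to 1080 CPM at 1 Hz (median 888), 646 to 1070 CPM at 4 Hz (median 791), and 340 to 677 CPM at 10 Hz (median 478). Every library at 1 and 4 Hz lay above every control library, while the 10 Hz libraries spread around the control. Atp2a1 rose 1.90-fold at 1 Hz (log2 fold change 0.92 ± 0.14 SE, edgeR adjusted p = 3.25e-05) and 1.79-fold at 4 Hz (0.84 ± 0.14, edgeR adjusted p = 5.58e-05). At 10 Hz its log2 fold change was 0.08 ± 0.14 (edgeR adjusted p = 0.816).

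Atp2a2 had smaller fold changes. Control libraries ranged from 695 to 895 CPM (median 717), those at 1 Hz from 905 to 1290 CPM (median 1140), those at 4 Hz from 909 to 1150 CPM (median 1040), and those at 10 Hz from 618 to 923 CPM (median 706). As for Atp2a1, no library at 1 or 4 Hz reached down to the control range. Atp2a2 rose 1.5-fold at 1 Hz (log2 fold change 0.58 ± 0.10 SE, edgeR adjusted p = 6.30e-05). At 4 Hz its log2 fold change was 0.47 ± 0.10 (edgeR adjusted p = 0.00038), which passed the adjusted p but not the minimum fold, and at 10 Hz it was -0.0045 ± 0.10 (edgeR adjusted p = 0.987). On the TPM scale 1 of the 6 libraries at 1 Hz and 4 of the 6 at 4 Hz overlapped with control.

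Atp2a3 stayed the scarcest pump throughout, at 0.0749% of the summed pump TPM in control and 0.165% at 4 Hz. Its libraries ranged from 0.628 to 1.88 CPM in control (median 1.36), 1.35 to 5.52 CPM at 1 Hz (median 4.15), 1.09 to 5.28 CPM at 4 Hz (median 4.59), and 0.826 to 1.69 CPM at 10 Hz (median 1.43). Of the stimulated libraries, 4 of 6 at 1 Hz and 5 of 6 at 4 Hz lay above every control library. Atp2a3 rose 2.78-fold at 1 Hz (log2 fold change 1.48 ± 0.36 SE, edgeR adjusted p = 0.00278) and 2.88-fold at 4 Hz (1.53 ± 0.36, edgeR adjusted p = 0.0016). In a fit of only the 12 libraries of 1 Hz and control, it was not among the 4 genes tested. With limma on log2(TPM + 1) without a filter, its log2 fold change was 0.56 at 1 Hz (limma adjusted p = 0.0542) and 0.62 at 4 Hz (limma adjusted p = 0.0238).

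**Figure D1:**
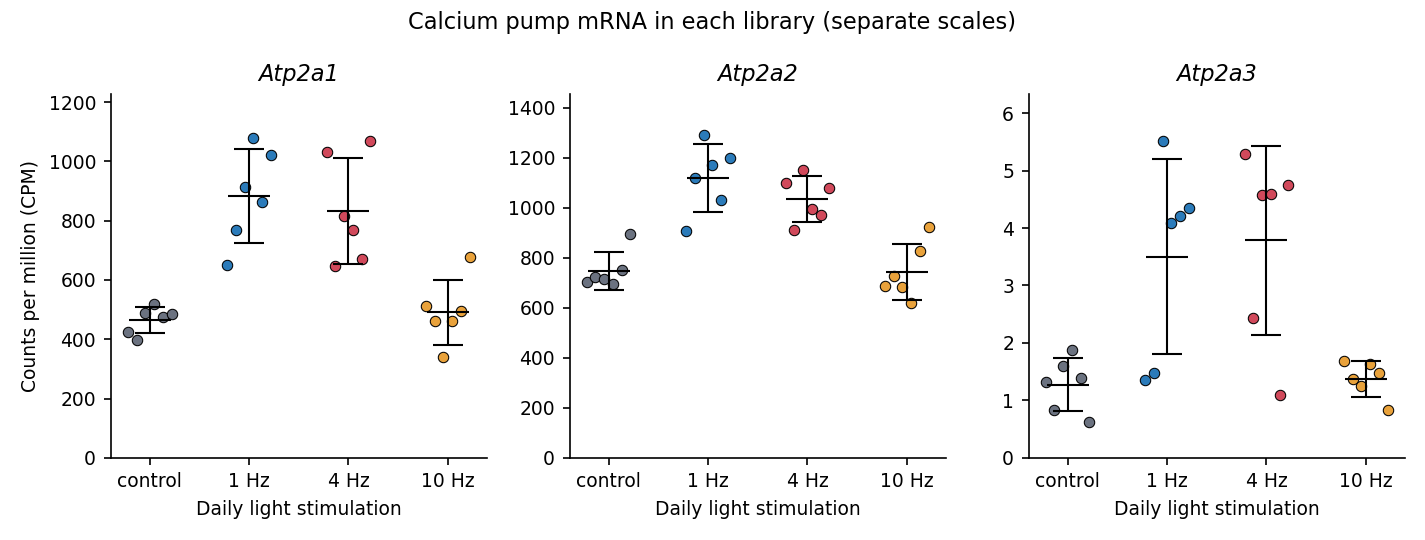
CPM (y axis, from 0, with a separate scale in each panel) of Atp2a1, Atp2a2, and Atp2a3 in the 6 libraries of each condition (x axis); each point is a library, and the bars show the mean and SD. The 1 and 4 Hz libraries of Atp2a1 (646 to 1080 CPM) and Atp2a2 (905 to 1290 CPM) lie above all control libraries, and the 10 Hz libraries overlap with control.

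Among the regulators, Mrln and Pln rose at both 1 and 4 Hz, and Sln passed the test at 4 Hz. Mrln ranged from 0.671 to 2.18 CPM in control (median 1.32), 4.21 to 7.22 CPM at 1 Hz (median 5.77), and 4.03 to 6.95 CPM at 4 Hz (median 6.12). The lowest library at 1 or 4 Hz thus held more Mrln than the highest control library. Mrln rose 4.20-fold at 1 Hz (log2 fold change 2.07 ± 0.31 SE, edgeR adjusted p = 2.49e-05) and 4.22-fold at 4 Hz (2.08 ± 0.31, edgeR adjusted p = 1.15e-05).

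Pln ranged from 0.581 to 1.67 CPM in control (median 1.05), 2.26 to 4.02 CPM at 1 Hz (median 3.53), and 3.29 to 6.15 CPM at 4 Hz (median 4.49). Again no library at 1 or 4 Hz overlapped with control. Pln rose 3.13-fold at 1 Hz (log2 fold change 1.65 ± 0.41 SE, edgeR adjusted p = 0.00318) and 4.36-fold at 4 Hz (2.12 ± 0.40, edgeR adjusted p = 0.00019). The length that the authors' counting assigned to Pln was taken from the ratio of count to TPM, scaled by the median gene of each library. It varied 3.62-fold between libraries, against 1.24-fold for the median gene, and the annotated transcripts of Pln run from 1114 to 4445 bases. The TPM of Pln therefore moved apart from its CPM, and on the TPM scale 4 of 6 libraries at 1 Hz lay above every control library. With limma on log2(TPM + 1), among genes with a mean of at least 1 TPM, Pln at 1 Hz had a log2 fold change of 0.90 and an adjusted p of 0.0633.

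Sln ranged from 0.209 to 1.63 CPM in control (median 0.916), 0.964 to 2.44 CPM at 1 Hz (median 1.56), and 2.03 to 2.65 CPM at 4 Hz (median 2.24). The 4 Hz libraries were tightly grouped and all above control, whereas 3 of 6 libraries at 1 Hz overlapped with control. Sln rose 2.43-fold at 4 Hz (log2 fold change 1.28 ± 0.33 SE, edgeR adjusted p = 0.00352). At 1 Hz its log2 fold change was 0.87 ± 0.35 (edgeR adjusted p = 0.053). With single libraries left out, the edgeR adjusted p ranged from 0.0183 to 0.138 and was under 0.05 in 3 of 24 fits. These left out control replicate 4 (0.0183), 1 Hz replicate 1 (0.033), or 10 Hz replicate 5 (0.0355).

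**Figure D2:**
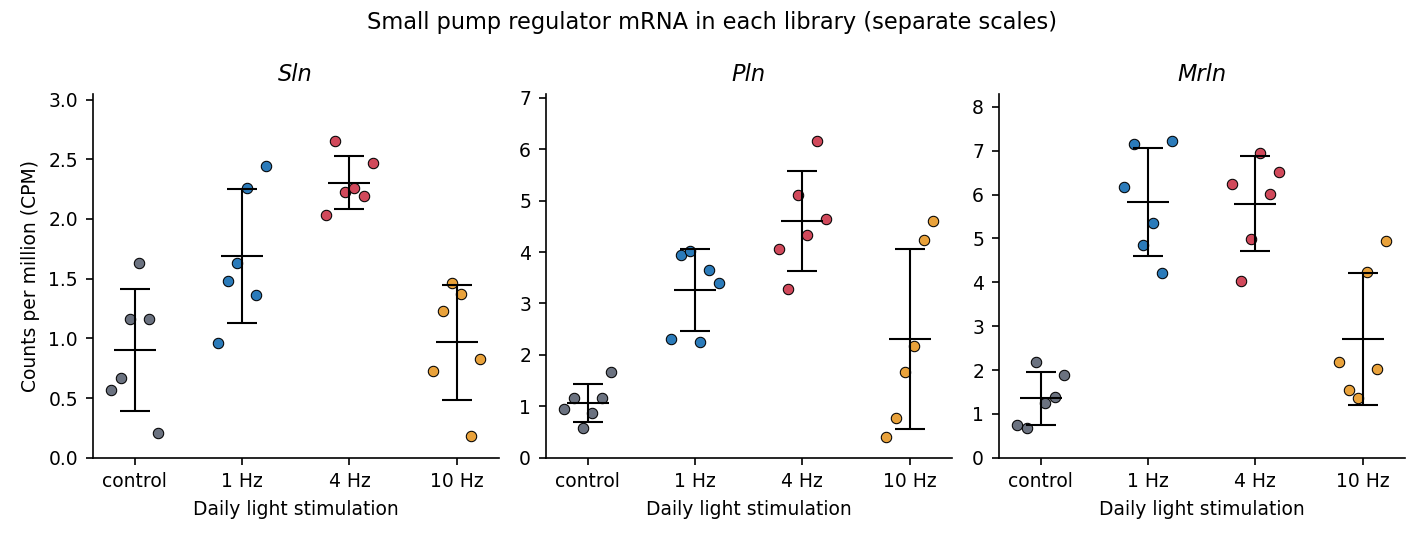
CPM (y axis, from 0, with a separate scale in each panel) of Sln, Pln, and Mrln in the 6 libraries of each condition (x axis); each point is a library, and the bars show the mean and SD. The 6 libraries of Sln at 4 Hz sit between 2.03 and 2.65 CPM, and the 10 Hz libraries of Pln spread from 0.403 to 4.60 CPM.

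At 10 Hz, edgeR called 0 of the 6 genes against control, where 1.24% of all genes were called higher. DESeq2 called 1 (Mrln, log2 fold change 1.00, DESeq2 adjusted p = 0.04), beside 0.578% of 31472 genes called higher, and limma called 0. Mrln and Pln had an unadjusted edgeR p under 0.05. The 2 genes were intermediate. Mrln had a log2 fold change of 0.99 ± 0.33 (edgeR adjusted p = 0.0746) and Pln of 1.09 ± 0.43 (edgeR adjusted p = 0.137). Both were uneven between libraries.

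Pln at 10 Hz was 0.403, 0.769, 1.67, 2.18, 4.24, and 4.60 CPM in replicates 1 to 6, so that 1 library lay below and 3 lay above every control library. Mrln in the same libraries was 2.18, 1.54, 1.36, 4.23, 2.03, and 4.95 CPM. The small RNAs in these libraries stood at 175, 272, 110, 79.5, 64.9, and 36.9 CPM, so that the libraries richest in Pln held the least of them. With their log2 share in the fit, Pln at 10 Hz against control had a log2 fold change of 0.72 (edgeR adjusted p = 0.3) and Mrln of 0.87 (edgeR adjusted p = 0.121). Beyond this fit, their part in the result was not tested. Without 10 Hz replicate 1, Pln passed at 10 Hz (log2 fold change 1.35, edgeR adjusted p = 0.03), and Mrln passed without 10 Hz replicate 2 (edgeR adjusted p = 0.0494), 10 Hz replicate 3 (0.0351), or control replicate 3 (0.0484). Of the 24 fits with a library left out, Pln passed in 1 and Mrln in 3, and the edgeR adjusted p rose to as much as 0.381 for Pln and 0.212 for Mrln. No 10 Hz library of Sln (0.184 to 1.46 CPM, log2 fold change 0.06 ± 0.37) or Atp2a3 (0.07 ± 0.40) lay above every control library.

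The comparisons between frequencies used the same libraries as those above. Between 4 and 1 Hz, edgeR, DESeq2, and limma each called 0 of the 6 genes (3.00% of all genes were called), and 0 had an unadjusted edgeR p under 0.05. The log2 differences, 4 Hz minus 1 Hz, ranged from -0.11 ± 0.10 SE for Atp2a2 to 0.48 ± 0.34 for Pln. At 10 Hz, 4 of 6 genes were called lower than at 1 Hz, against 8.49% of all genes, and 5 of 6 lower than at 4 Hz, against 5.64%. Atp2a1 was lower by 0.85 ± 0.14 on the log2 scale than at 1 Hz (edgeR adjusted p = 6.10e-05) and Mrln by 1.08 ± 0.27 (edgeR adjusted p = 0.00299). Atp2a1 at 10 Hz was also lower than at 4 Hz (log2 fold change -0.76 ± 0.14, edgeR adjusted p = 0.000615), as was Sln (-1.22 ± 0.31, edgeR adjusted p = 0.00708), for which no 10 Hz library reached the 4 Hz range. Atp2a3 was lower than at both frequencies (-1.40 ± 0.35 and -1.45 ± 0.34, edgeR adjusted p = 0.00259 and 0.00386). Atp2a2 was lower than at 1 Hz (-0.59 ± 0.10, edgeR adjusted p = 4.44e-05), and its difference from 4 Hz (-0.48 ± 0.10, edgeR adjusted p = 0.00113) stayed below the minimum fold. The call for Pln against 4 Hz (-1.03 ± 0.35, edgeR adjusted p = 0.0333) depended on single libraries, since the adjusted p was 0.0573 or 0.0629 without 4 Hz replicate 3 or 5 and 0.0713, 0.0819, or 0.0716 without 10 Hz replicate 1, 2, or 3. Against 1 Hz, Pln (-0.56, edgeR adjusted p = 0.232) and Sln (-0.80, edgeR adjusted p = 0.0563) did not pass. Sln then passed without control replicate 4 (edgeR adjusted p = 0.0491) or 6 (0.0419), 1 Hz replicate 1 (0.0348), or 10 Hz replicate 3 (0.0363) or 4 (0.045), and Pln without 10 Hz replicate 6 (0.0428). Of 24 such fits Sln passed in 5 and Pln in 1, and the edgeR adjusted p rose to as much as 0.149 for Sln and 0.476 for Pln.

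**Figure D3:**
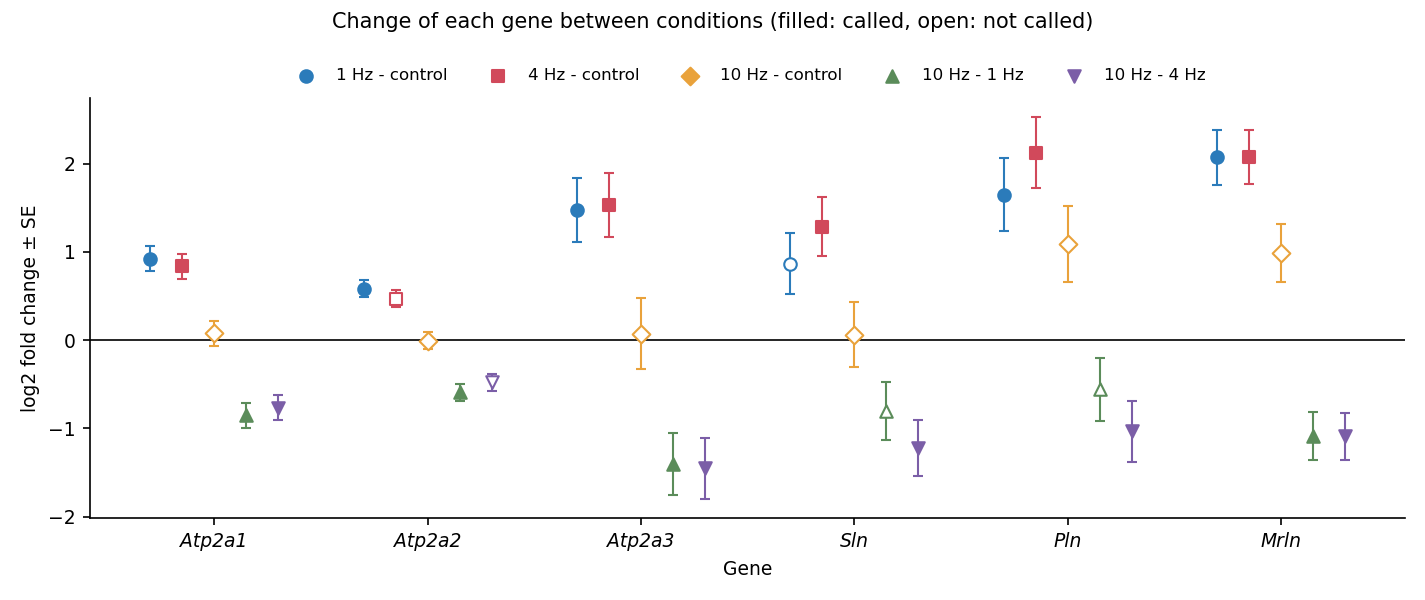
Log2 fold change with its SE (y axis) of each of the 6 genes (x axis) in 5 comparisons, named in the key; filled symbols were called (edgeR adjusted p below 0.05 and absolute log2 fold change above 0.5) and open symbols were not. Values are positive at 1 and 4 Hz against control, from 0.47 to 2.12, and negative at 10 Hz against 1 or 4 Hz.

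Stimulation frequency is the usual difference between fast and slow motor nerves, and the next comparison was of the balance between Atp2a1 and Atp2a2. It is a balance of genes, and the level of Atp2a2 need not be that of the slow pump alone. The fast pump Atp2a1 made up 50.9 ± 3.81% of the summed TPM of the 3 pumps in control (SD, n = 6), with a range of 46.3 to 55.3%. It made up 54.3 ± 2.87% at 1 Hz (50.9 to 57.9%), 54.3 ± 3.63% at 4 Hz (51.0 to 59.6%), and 51.7 ± 4.09% at 10 Hz (44.8 to 55.7%). All 4 conditions overlapped. The share was higher than control by 3.37 percentage points at 1 Hz (SE 1.95, 2-sided exact permutation p = 0.117) and by 3.42 points at 4 Hz (SE 2.15, exact permutation p = 0.141), and the Benjamini-Hochberg (BH) adjusted p was 0.403 for both over the 6 pairs of conditions. At 10 Hz the difference from control was 0.824 points (SE 2.28, exact permutation p = 0.716, BH adjusted p = 0.86). The scale mattered here: as a share of pump CPM, which is not divided by length, the differences were 5.46 points at 1 Hz and 5.77 points at 4 Hz (exact permutation, BH adjusted p = 0.0455 for both). Assigned lengths were scaled by the median gene of each library and divided by the median of the same gene over all libraries. The relative length of Atp2a1 had a median of 0.962 in control and of 1.05 and 1.06 at 1 and 4 Hz, while that of Atp2a2 was 0.990 in control and 1.00 and 0.999. Among genes of the contractile apparatus, 9 of 10 fast and 8 of 8 tested slow fiber genes were called higher at 1 Hz, and the same numbers at 4 Hz. Over all genes tested, 9.34% were called higher at 1 Hz and 10.5% at 4 Hz.

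The 3 regulators were also set against the pumps. The summed TPM of Sln, Pln, and Mrln per 1000 pump TPM was 16.6 ± 4.43 in control (SD, n = 6, range 9.78 to 22.3), 39.8 ± 9.05 at 1 Hz (30.2 to 50.4), 46.3 ± 6.99 at 4 Hz (39.3 to 56.5), and 31.8 ± 14.0 at 10 Hz (18.7 to 55.4). No library at 1 or 4 Hz overlapped with control. These ratios were not tested, and Mrln weighed most in them, with 72.5 ± 9.60% of the regulator TPM in control 83.9 ± 5.90% at 1 Hz, and 75.7 ± 5.59% at 4 Hz. By CPM, which favors long transcripts, Mrln made up 39.4 ± 11.1%, 53.9 ± 7.36%, and 45.4 ± 5.09%. With 1810037I17Rik, the more abundant gene of another inhibitory peptide, added to the sum, it was 175 ± 20.9 per 1000 pump TPM in control (140 to 196), 143 ± 17.9 at 1 Hz (126 to 171), 185 ± 16.1 at 4 Hz (163 to 209), and 218 ± 46.0 at 10 Hz (157 to 286). On that count 3 of 6 libraries at 1 Hz lay below every control library.

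**Figure D4:**
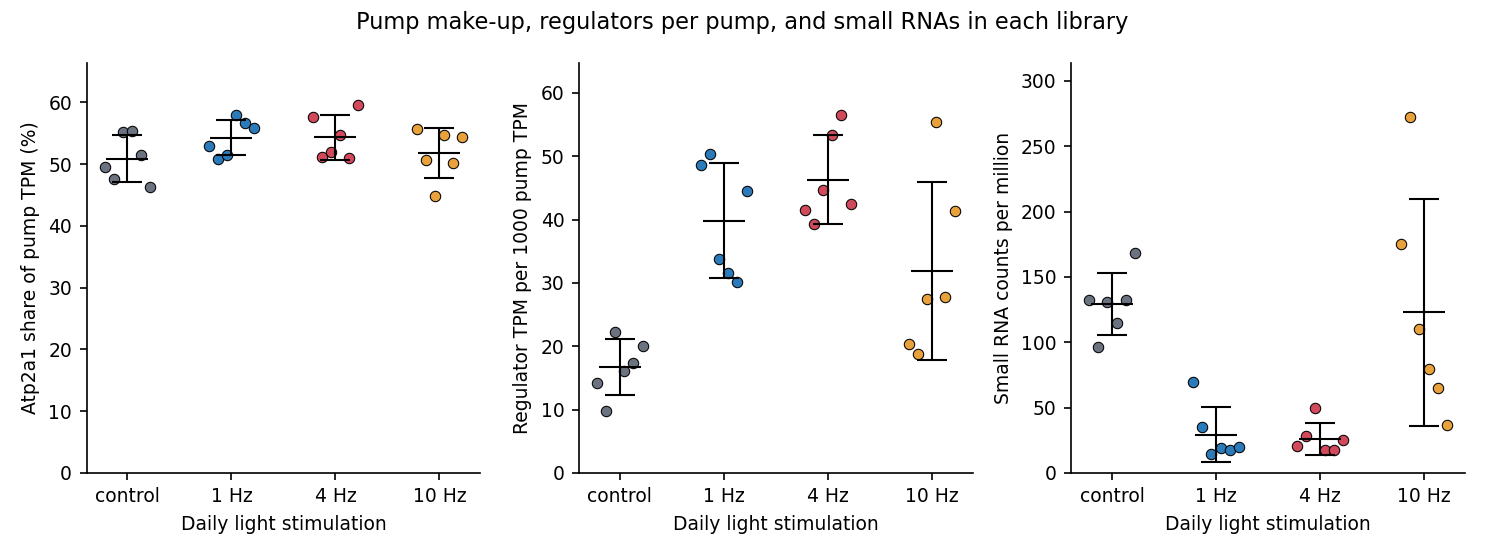
From left to right, the Atp2a1 share of pump TPM in percent, the summed TPM of Sln, Pln, and Mrln per 1000 pump TPM, and small RNA CPM (y axes, from 0) in the 6 libraries of each condition (x axis); points are libraries, and bars show the mean and SD. The pump share overlaps between all conditions (44.8 to 59.6%), and in the other panels the 1 and 4 Hz libraries lie apart from control.

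Fiber markers were also higher in the same libraries, with 6 of 10 called at 1 Hz and at 4 Hz, against 9.34% and 10.5% of all genes. The pumps and regulators were therefore set against these markers. These markers summed to 12580 ± 802 TPM in control (SD, n = 6), 17720 ± 1930 TPM at 1 Hz, 19090 ± 2640 TPM at 4 Hz, and 13880 ± 1980 TPM at 10 Hz. Per 1000 TPM of these markers, the pumps summed to 45.3 ± 3.41 TPM in control, 49.2 ± 5.29 at 1 Hz, 39.2 ± 2.12 at 4 Hz, and 39.0 ± 4.79 at 10 Hz. By this ratio 3 of 6 libraries at 1 Hz lay above every control library, whereas 5 of 6 at 4 Hz lay below. The marker sum weighs each marker by its abundance. Mylpf and Acta1 each had a mean of 3290 TPM in control and of 6070 and 5120 TPM at 4 Hz. Ckm (91.9 TPM in control, 91.5 at 4 Hz) and Ttn (45.9 and 37.6) were not higher, and ratios to single markers were not computed. Mrln was at 0.560 ± 0.225 TPM per 1000 marker TPM in control (0.322 to 0.843), 1.64 ± 0.404 at 1 Hz (1.19 to 2.26), and 1.38 ± 0.255 at 4 Hz (1.12 to 1.70), without overlap. Pln per 1000 marker TPM was 0.105 ± 0.0589 in control (0.0284 to 0.176), 0.191 ± 0.0880 at 1 Hz (0.0932 to 0.324), and 0.309 ± 0.128 at 4 Hz (0.193 to 0.487). It overlapped with control at 1 Hz but not at 4 Hz. Sln per 1000 marker TPM (0.0879 in control, 0.112 at 1 Hz, and 0.135 at 4 Hz) overlapped at both, and none of these ratios was tested.

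Other genes of the calcium store were called at the same frequencies. Of 16 genes for calcium release and storage in the sarcoplasmic reticulum, 12 were called higher at 1 Hz, 13 at 4 Hz, and 2 at 10 Hz (median log2 fold change 0.62, 0.70, and 0.18). Of all genes tested, 9.34%, 10.5%, and 1.24% were called higher in these comparisons. Among the genes called in the list were Casq1 and Casq2, which encode the calsequestrins that hold calcium in the store. Casq1 rose by 0.91 ± 0.15 on the log2 scale at 1 Hz and by 1.15 ± 0.15 at 4 Hz (edgeR adjusted p = 4.64e-05 and 1.66e-06), and Casq2 by 0.87 ± 0.10 and 1.11 ± 0.10 (edgeR adjusted p = 1.23e-06 and 2.53e-08). Casq2 was also called at 10 Hz (0.54 ± 0.10, edgeR adjusted p = 0.0018), where every library lay above every control library. Trdn, which encodes triadin and anchors calsequestrin at the release channel, rose by 1.05 ± 0.19 at 4 Hz (edgeR adjusted p = 9.15e-05), and Ryr3, a minor form of the release channel, by 0.82 ± 0.18 (edgeR adjusted p = 0.000658).

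Of 15 genes whose products act on the pumps or on phospholamban, 14 were tested, and 7 were called higher at 1 Hz, 9 at 4 Hz, and 1 at 10 Hz (median log2 fold change 0.49, 0.59, and 0.13). Over all genes tested, the shares called higher were 9.34%, 10.5%, and 1.24%. Calr, the calcium-binding chaperone calreticulin, rose by 1.08 ± 0.14 on the log2 scale at 1 Hz and by 1.47 ± 0.14 at 4 Hz (edgeR adjusted p = 4.66e-06 and 5.12e-08). Camk2a and Camk2b encode subunits of the calmodulin-dependent kinase that phosphorylates phospholamban. Camk2b rose by 1.06 ± 0.17 and 1.21 ± 0.17 (edgeR adjusted p = 5.46e-05 and 7.08e-06), and Camk2a by 1.09 ± 0.16 and 1.08 ± 0.16 (edgeR adjusted p = 1.90e-05 and 1.15e-05). Camk2a was also the gene called at 10 Hz (0.60 ± 0.16, edgeR adjusted p = 0.0282). Pdia3, an oxidoreductase of the reticulum, rose by 0.57 ± 0.10 and 0.73 ± 0.10 (edgeR adjusted p = 0.000202 and 8.82e-06).

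Of 6 genes for calcium pumps outside the sarcoplasmic reticulum 3 were tested, with a median log2 fold change of -0.12 at 1 Hz, -0.24 at 4 Hz, and -0.15 at 10 Hz. Atp2b4, a calcium pump of the plasma membrane, fell by 0.55 on the log2 scale at 4 Hz (SE 0.13, edgeR adjusted p = 0.00114), from 51.0 ± 11.2 to 34.6 ± 3.42 CPM (SD, n = 6). Of the other small regulators of SERCA pumps, only 1810037I17Rik, whose product inhibits the pumps in many cell types, was abundant enough to test. It stood at 61.6 CPM in control, 64.4 at 1 Hz, 81.2 at 4 Hz, and 72.3 at 10 Hz, and at 89.3, 89.0, 103, and 96.8 TPM, above the 3 regulators among the members. Its log2 fold change at 4 Hz was 0.40 ± 0.09 (edgeR adjusted p = 0.000717), below the minimum fold. Strit1, whose peptide displaces the inhibitory regulators from the pump, did not pass the filter. Its mean was 0.422 CPM in control, 0.358 at 1 Hz, 1.01 at 4 Hz, and 0.561 at 10 Hz, and 5 of 6 libraries at 4 Hz lay above every control library.

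Across all 24 libraries, the genes whose log2 CPM ran most like that of each pump or regulator were taken from 9066 genes and are given as a description, since they share the 4 conditions, the libraries, and their depth. For Atp2a1 these were Cacna1s (Pearson r = 0.977), which encodes the voltage sensor that triggers calcium release, Pygm (0.97), the muscle glycogen phosphorylase, and Pfkm (0.963), the muscle phosphofructokinase. For Atp2a2 they were Srl (0.977), which encodes sarcalumenin, a calcium-binding protein of the store, Nrg1 (0.965), and Igfbp5 (0.963). Mrln was closest to Mybph (0.929), Myoz2 (0.909), and Cd80 (0.901), and Pln to Sntb1 (0.949), Acsl6 (0.942), and Arpp21 (0.94). The scarcer Atp2a3 and Sln reached at most 0.877 (Cdsn) and 0.816 (Eef1d). Between members, r was 0.909 for Atp2a1 with Atp2a2 and still 0.648 after the condition means were removed. For Sln with Pln it was 0.375, and -0.37 after removal of the means.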

How the data were processed

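Poly(A) RNA of 24 light-stimulated or control C2C12 sheets was sequenced as directional paired-end libraries. Some low-input samples were depleted of ribosomal RNA instead, but the sources used here do not say which. The authors deposited gene tables of estimated counts and of TPM values made with STAR and Salmon against GRCm39 through the nf-core/rnaseq pipeline. Reads were also mapped with BWA, and bedtools was used for quality metrics. The submitters' processing notes give BWA 0.7.12-r1039 and bedtools 2.25.0 and also list hg19 and mm10. Between 6.62 and 10.6% of the estimated counts per library were not whole numbers, and they were rounded.

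Counts were fitted for all 24 libraries together with condition as the only term (edgeR 4.0.16 in R 4.3.3, TMM scaling, quasi-likelihood test, Benjamini-Hochberg adjustment over 13318 genes that passed filterByExpr with a minimum count of 10). These genes held 99.77% of all counts, and the common dispersion was 0.02326. The procedure was tested on simulated data first. DESeq2 1.42.0, limma 3.58.1 on log2(TPM + 1) and log2(TPM + 0.1), other scalings and filters, a small RNA covariate, a replicate term, libraries left out singly, and thinned counts were the alternatives. Shares were compared by 2-sided exact permutation over 924 splits, with a smallest possible p of 0.00216 (scipy 1.17.1). Correlations used log2 CPM with a prior count of 2. CPM compares libraries and TPM compares genes, because CPM is not divided by length. Upstream windows were searched for motifs in 5 of the 6 genes, and 1 window is not reported here. Precision for Sln, Pln, Mrln, and Atp2a3 is limited by counts below 100 per library.

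The 6 genes and all lists were chosen with earlier results of these data known. Named genes were the 6 members, up to 4 genes of each pathway list with the largest change among those called at 4 Hz (mean of at least 5 CPM), and the 3 genes most correlated with each member (mean of at least 10 CPM, predicted genes passed over). The study gives the samples as biological replicates. Labels do not name the culture of origin, so p-values measure the spread between these sheets.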

Additional observations from a re-analysis of the deposited data

Results flagged for a closer look

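In 1 of 32 groups of values tested for a stray library (the CPM of each of the 6 genes, the fast pump share, and the ratio of regulators to pumps, in each condition), a single library stood apart from the other 5. Control replicate 6 held 895 CPM of Atp2a2, while the other control libraries held 695 to 751 CPM, and the gap was 0.718 of the whole range. Chance alone marks about 1 in 20 such groups.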

How the results depend on the processing

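The number of the 6 genes called fell from 5 to 3 with limma on TPM, at 1 Hz and for 10 against 4 Hz in all 3 settings (log2(TPM + 1) and log2(TPM + 0.1) with a filter, and log2(TPM + 1) without) and at 4 Hz in both settings with the filter. The filter of at least 1 TPM left out Atp2a3 (mean 0.828 TPM), so both settings with it tested 5 genes. Fewer genes of the whole table were called higher there too, 6.08% against 9.34% at 1 Hz and 4.97% against 10.5% at 4 Hz on log2(TPM + 1), where the median of all genes shifted to -0.16 at 4 Hz and 15.1% were called lower, against 9.61%. With a mean of at least 5 CPM, which leaves only Atp2a1 and Atp2a2 to test, the number called was 2 at 1 Hz and 1 at 4 Hz. Of all genes, 8.69% and 9.93% were called higher there. For 10 against 1 Hz and 10 against 4 Hz it was 2 and 1, against 7.78% and 5.11% of all genes called lower. With the small RNA covariate it was 0 in each comparison. With counts thinned to 4.09 M per library, an alternative chosen after seeing the data, it was 1 at 10 Hz against control. There 1.17% of all genes were called higher. For 10 against 4 Hz it was 2 of 5 tested, against 5.02% of all genes called lower. DESeq2 gave 1 at 10 Hz against control, beside 0.578% of 31472 genes called higher. Leaving out single libraries gave 0 to 1 in this comparison, and the share of all genes was not computed for those fits. The fast pump share differed from control by 5.46 percentage points at 1 Hz and 5.77 at 4 Hz as a share of CPM, and the cause was not tested beyond the assigned lengths given above. With a replicate block, 6, 5, and 0 genes were called at 1, 4, and 10 Hz against control, where 9.27%, 10.4%, and 1.32% of all genes were called higher. For 4 against 1 Hz 0 were called, with 1.77% of all genes higher and 1.44% lower. For 10 against 1 Hz 4 were called (8.58% of all genes lower), and for 10 against 4 Hz 5 (5.77% lower). The added call was Sln at 1 Hz (log2 fold change 0.89, edgeR adjusted p = 0.0467), and the block changed no other call. Replicate numbers did not pair the libraries, since 36 pairs with the same number correlated at -0.184 to 0.362 (median 0.0173, 10 over 0.1) and 5 of 24 libraries correlated best with their own number. Of 1249 alternative values for single genes, 1154 kept their direction and side of the threshold, 39 lost significance, 16 gained it, and 40 changed sign. The 40 were small values that did not pass the test before or after. On the log2 scale they were Atp2a1 at 10 Hz with limma (-0.06822, -0.06853, and -0.06822), Atp2a2 at 10 Hz without a filter (0.01521) or at 5 CPM (0.007077), Mrln for 4 against 1 Hz with total count scaling (-0.01371), limma (-0.1278, -0.1318, and -0.1278), the covariate (-0.00745), or thinning (-0.09804), Pln for 10 against 1 Hz with the covariate (0.4411), and others with a library left out. Leaving out single libraries gave -0.03755 to 0.1627 for Atp2a1, -0.07636 to 0.05403 for Atp2a2, -0.04929 to 0.2373 for Atp2a3, and -0.1144 to 0.3533 for Sln at 10 Hz against control, and -0.09998 to 0.236 for Atp2a3 and -0.07195 to 0.09278 for Mrln for 4 against 1 Hz. The fast pump share then differed by -0.09979 to 2.219 points at 10 Hz against control and by -1.01 to 0.7609 points for 4 against 1 Hz.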

Other observations

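Strit1 and Smim6, which encode other small peptides that bind SERCA pumps, were too scarce to be tested. Strit1 had a mean of 13.1 TPM at 4 Hz against 6.34 TPM in control, 4.92 TPM at 1 Hz, and 7.38 TPM at 10 Hz, which is above the TPM of Pln and of Sln in each condition. Smim6 was highest at 10 Hz, at 1.35 ± 0.753 CPM (SD, n = 6) against 0.628 ± 0.413 CPM in control, and 3 of 6 libraries at 10 Hz lay above every control library. Calr, the calreticulin gene, was called at 1 and 4 Hz but not at 10 Hz, where it stood at 1748 ± 65.0 CPM against 1417 ± 85.2 CPM in control (edgeR adjusted p = 0.2 at a log2 fold change of 0.30 ± 0.14 SE). All 6 of its 10 Hz libraries lay above every control library.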
